A study of Drosophila melanogaster with 2 samples.

Results

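Intergenic peaks of Aristaless were the sites of the embryonic binding map at which the summit, the single most enriched base, lay outside every protein-coding gene and more than 500 bp from every protein-coding transcription start site (TSS). They numbered 489 of the 3822 peaks whose summits lay on the 7 chromosome arms, or 12.8% (95% Wilson interval 11.8 to 13.9%, counting error over peaks only). The rule used position alone, with genes from Ensembl's annotation of the BDGP6 assembly, and no measured value chose a peak. The map came from chromatin immunoprecipitation and sequencing of whole Drosophila melanogaster embryos aged 0 to 24 h. The flies carried an insertion at al and made the Aristaless protein fused to enhanced green fluorescent protein (eGFP), which was precipitated with an antibody against GFP. Chromatin was sonicated to 200 to 800 bp, and 2 biological replicates were sequenced. There was 1 group and no untagged or untreated embryo among the samples, and the possible control that the labels name was not analysed here, so every comparison is between kinds of site.

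Aristaless is a homeodomain transcription factor of the paired class. It is best known in flies for patterning the ends of the legs and antennae, where it acts together with the homeodomain protein C15. Homeodomains bind short AT-rich sites built around the letters TAAT, and paired-class homeodomains can bind as dimers to a palindromic pair of such sites. Enhancers and insulators commonly lie in the DNA between genes, at a distance from the promoters they act on. In whole embryos, a site used by a few cells and a site used weakly by many cells cannot be told apart.

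The strongest intergenic sites are shown first, because they show what the DNA under a summit looked like. Each line gives the bases within 50 bp of the summit, from RefSeq's copy of genome release 6, on the forward strand, with the flanking protein-coding genes in the name. Capitals would mark the homeodomain core TAATTA or a pair of TAAT sites facing each other at a spacing of 2 or 3 bases, and these 4 windows hold neither.
CG4004 and Paics, X:12751359-12751459: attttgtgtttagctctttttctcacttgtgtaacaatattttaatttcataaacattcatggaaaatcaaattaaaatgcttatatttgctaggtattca
CG17896 and CG17778, X:493948-494048: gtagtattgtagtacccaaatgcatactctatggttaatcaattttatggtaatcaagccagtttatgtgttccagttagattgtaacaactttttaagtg
RFeSP and chinmo, 2L:1638741-1638841: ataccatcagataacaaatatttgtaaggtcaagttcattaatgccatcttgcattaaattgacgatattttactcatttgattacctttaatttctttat
CG9922 and foxo, 3R:14053556-14053656: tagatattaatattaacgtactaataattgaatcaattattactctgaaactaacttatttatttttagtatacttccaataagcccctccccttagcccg
The windows of the 4 strongest sites were rich in A and T, with a GC content of 23.8 to 31.7%. A dimer within 50 bp of the summit was present at 9 of the 489 peaks. An example with each spacing is shown, with ranks of 368 and 467 by signal, and these are not the strongest of the 9. Capitals mark the core and each pair of facing sites.
CG15172 and Sidpn, 2L:19026939-19027039: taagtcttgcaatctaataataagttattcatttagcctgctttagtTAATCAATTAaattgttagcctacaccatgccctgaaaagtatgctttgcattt
NimC3 and hll, 2L:14024863-14024963: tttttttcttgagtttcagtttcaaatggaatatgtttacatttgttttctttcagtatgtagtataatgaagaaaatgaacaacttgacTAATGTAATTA
The site between CG15172 and Sidpn had a spacer of 2 bases, and its signal was 57.8, with 43.1 and 19.6 in the replicates 1 and 2. The site between NimC3 and hll had a spacer of 3 bases, and its signal was 43.7, with 27.3 and 23.8.

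Peaks are ranked here by signal, the enrichment value that the authors deposited for each. Intergenic peaks had a median signal of 79.9, with a range of 2.88 to 1528. Promoter peaks, with a summit within 500 bp of a TSS, had a median of 100.5, and peaks within genes but away from a TSS had a median of 82.0. The order of intergenic and promoter peaks was the same in each replicate's own peak list, where the medians were 62.8 for 347 intergenic peaks and 71.5 for promoter peaks in replicate 1, and 50.7 for 271 intergenic peaks and 60.3 for promoter peaks in replicate 2. Intergenic peaks made up 11.6% of the list of replicate 1 and 13.0% of the list of replicate 2, or 12.3 ± 0.940% (SD, n = 2).

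Of the 489 intergenic peaks, 317 overlapped a peak in the separate list of replicate 1, or 64.8% (60.5 to 68.9%), against 73.0% of all 3822 peaks. A peak of replicate 2 was overlapped by 252 intergenic peaks, or 51.5% (47.1 to 55.9%), against 53.5% of all peaks. Peaks of both replicates were met by 208 of them, or 42.5%, against 47.7% of all peaks. The authors' stricter conservative list held 392, or 80.2%, against 83.4% of all peaks. The authors' own q-value was at most 0.05 for 333 intergenic peaks, or 68.1%, against 75.4% of all peaks. By each of these measures the intergenic share lay below the share over all peaks, and for the overlap with replicate 2 and for the conservative list the interval holds the share of all peaks. Promoter peaks make up 51.2% of all peaks. Within-gene peaks overlapped replicate 1 in 69.0%, replicate 2 in 44.7% and both in 39.9%, and 78.8% were in the conservative list.

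Overlap with the separate lists went with signal. The series signal, the q-value and the replicate lists all derive from the same 2 libraries, so this relation is not an independent check. In the upper quartile by signal, 123 of 123 peaks were in the list of replicate 1 and 120 were in the list of replicate 2. In the lowest quartile these counts were 29 and 17 of 122, and none of that quartile had an own q of at most 0.05. The third quartile from the top, with signals of 57.9 to 79.9, had 58 peaks in replicate 1 and 24 in replicate 2. A total of 128 intergenic peaks (26.2%, 22.5 to 30.2%) were in neither separate list, against 26.1% of within-gene peaks and 21.2% of all peaks.

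**Figure D1:**
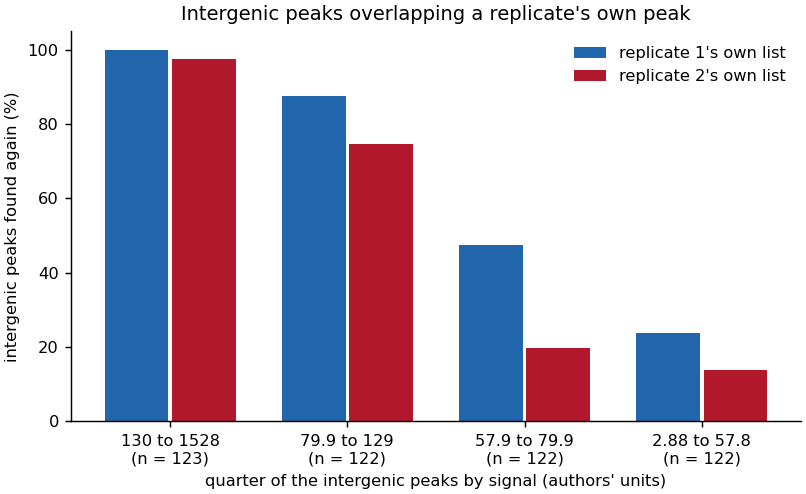
Share of intergenic peaks that overlap a peak in the list of replicate 1 (left bar of each pair) or replicate 2 (right bar), by quartile of the series signal. In the strongest quartile, 100% and 97.6% overlapped such a peak, and in the weakest quartile 23.8% and 13.9%. The series signal and the replicate lists derive from the same 2 libraries.

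Each replicate also has a longer ranked list of candidate peaks, and 473 intergenic peaks had a candidate in both. Replicate 1 gave the higher value for 388 of these 473 (82.0%), with a median ratio of 1.43 between replicates, against 1.48 for promoter peaks and 1.57 for within-gene peaks. How the signal was scaled in each replicate is not stated, so this ratio describes the lists. Across these 473 sites, which share the same 2 libraries, Pearson's r of the log2 signals was 0.773 and Spearman's rho was 0.728, as a description over sites and not over samples.

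**Figure D2:**
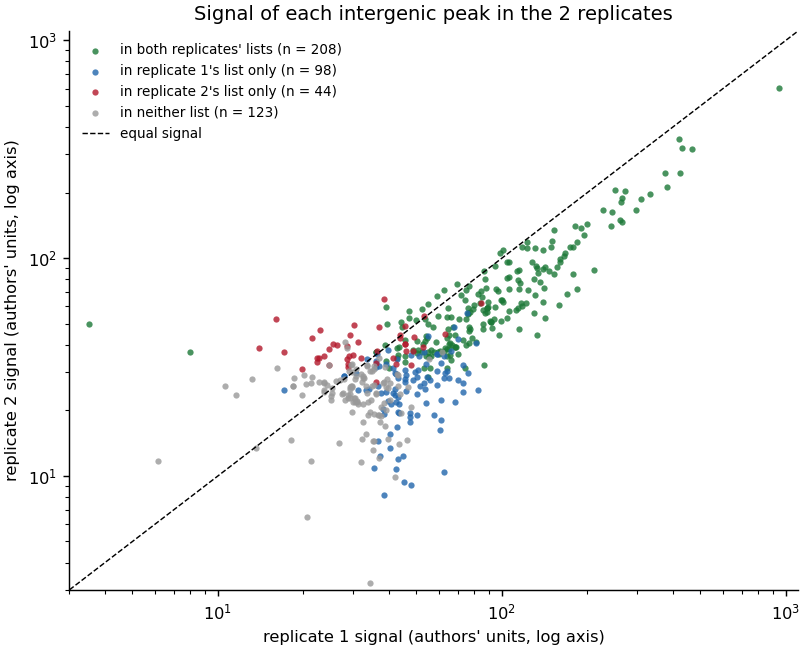
Signal of each of the 473 intergenic peaks with a candidate in both replicates, replicate 1 across and replicate 2 up, both on log axes and in the authors' units. Colours give the replicate lists that hold the peak, and most points (388) lie below the dashed line of equal signal.

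The strongest intergenic peak lay at X:12751193-12751593, inside the long non-coding RNA gene lncRNA:Vinr. It stood 1624 bp past the end of CG4004 and 5627 bp from Paics, a gene of purine synthesis. Its signal of 1528 was the highest of the intergenic set, with 945 in replicate 1 and 603 in replicate 2, and the next site reached 780. That gap of 7.25 kb held 5 intergenic peaks, with signals of 1528, 668, 459, 267 and 197, and each was in the lists of both replicates. The peaks of 668 and 459 lay inside another long non-coding RNA gene, lncRNA:CR44619. CG4004 and Paics point towards each other, so the gap holds the ends of the 2 genes and no protein-coding start.

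The second strongest site, X:493871-494133, lay between the divergent genes CG17896 and CG17778, and reached 780 in the series list, 466 in replicate 1 and 316 in replicate 2. It was also the member nearest to the limit of the rule, at 503 bp from the start of CG17896. The next nearest members lay 504 bp from Npc2b, which encodes a sterol-binding protein, with a signal of 59.8, and 507 bp from CG3348, with a signal of 192. Just on the promoter side stood the peaks at 499 bp from SsRbeta (39.1), 493 bp from CG15890 (17.0) and 489 bp from prtp (220).

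The third strongest site, 2L:1638621-1638964, stood 12467 bp upstream of chinmo, which encodes a BTB zinc-finger protein that sets temporal identity in neurons. Its signal was 773, with 419 in replicate 1 and 353 in replicate 2. The gap between RFeSP, the Rieske subunit of respiratory complex III, and chinmo is 37.1 kb long and held 10 intergenic peaks, the most of any gap. Signals there ran from 3.71 to 773 with a median of 170. All 10 were in the list of replicate 1 and 8 were in the list of replicate 2. The sites at 18416 bp (413), 7787 bp (376) and 16944 bp (252) from the start of chinmo also had values in both replicates. The weakest, at 3.71, overlapped its stronger neighbour of 96.5, and both take their replicate values from the same candidate peaks.

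The fourth, 3R:14053434-14053731, lay 3339 bp upstream of foxo, the FOXO transcription factor of insulin signalling, and reached 751 in the series list, 431 in replicate 1 and 320 in replicate 2. A second peak of 319 stood 4598 bp from the same start. CG9922 lies at the other end of this gap.

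A pair of strong sites flanked genes of the Polycomb group, which keep developmental genes silent. The peak at 2R:13035221-13035450, with a signal of 624 (375 and 246 in replicates 1 and 2), stood 27435 bp past the end of Su(z)2, on the side of CG13323. The peak at 2R:12985078-12985315 lay 4201 bp upstream of Psc, facing CG33798, with a signal of 504 (308 and 186). The peak at 3R:16222369-16222623, 3162 bp upstream of tara, which encodes a nuclear protein of the trithorax group, had 596 (381 and 212), with mtSSB, a mitochondrial DNA-binding protein, on its other side. Between Cyt-c1L and eEF1gamma, a translation elongation factor subunit, a site 5729 bp upstream of eEF1gamma had 528 (332 and 196). Its summit lay 119 bp from the start of the non-coding gene lncRNA:CR31044. The summit of the Psc site lay 172 bp from the start of lncRNA:CR44339.

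The tenth site by signal lay between C15, the homeobox partner of al in the developing leg tip, and sp3. At 3R:21520253-21520472, it stood 7539 bp past the end of C15 and 575 bp from the start of sp3. Its signal was 477, with 272 in replicate 1 and 203 in replicate 2, and it held a TAATTA core 85.5 bp from the summit. A second peak next to C15, on the side of Fancm, had 74.9, with 51.4 in replicate 1 and 25.9 in replicate 2.

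The 7 of the 20 strongest not yet described had signals of 330 to 455. They lay 19115 bp from CG43245 in the gap of NijA (455), 1241 bp upstream of stck with Atg13 behind it (449), between CG6168 and CG6163 (434), between hng3 and CG13898 (409), between CG9932 and Ttc30 (405), between blw and CycB (396) and 2113 bp upstream of NimC3, facing hll (330). NijA is a ninjurin cell adhesion protein, stck acts at integrin adhesions, Atg13 in autophagy, CycB is cyclin B, and NimC3 is a Nimrod receptor of blood cells. All 20 were in the conservative list.

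Intergenic peaks were unevenly shared among arms. The left arm of chromosome 3 held 141 of 489 (28.8%), or 14.5 for each Mb in which the rule allows a member, against 11.4 over all arms. It held 99 of the 347 intergenic peaks of replicate 1 and 77 of the 271 of replicate 2. The right arm of chromosome 2 had the lowest density of the long arms, at 9.84 per Mb. Chromosome 4 had no intergenic peak in its 0.298 allowed Mb, although the list of replicate 1 had 3 there. The Y had 2, both in the list of replicate 2 and not of replicate 1, with signals in replicates 1 and 2 of 38.3 and 64.7 at one and of 16.0 and 52.6 at the other.

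Short gaps were the more densely occupied. In gaps of up to 2 kb there were 42.1 intergenic peaks per allowed Mb, and the value declined with each class of length to 3.15 per Mb in gaps over 50 kb. The allowed DNA was not corrected for repeats in which reads are hard to place, and their part in this decline was not tested. The median member nevertheless sat in a gap of 12.8 kb, since 278 of 489 (56.9%) were in gaps over 10 kb. Of the 5767 gaps in which a member was possible, 344 held at least 1, 78 held at least 2 and 15 held at least 4.

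**Figure D3:**
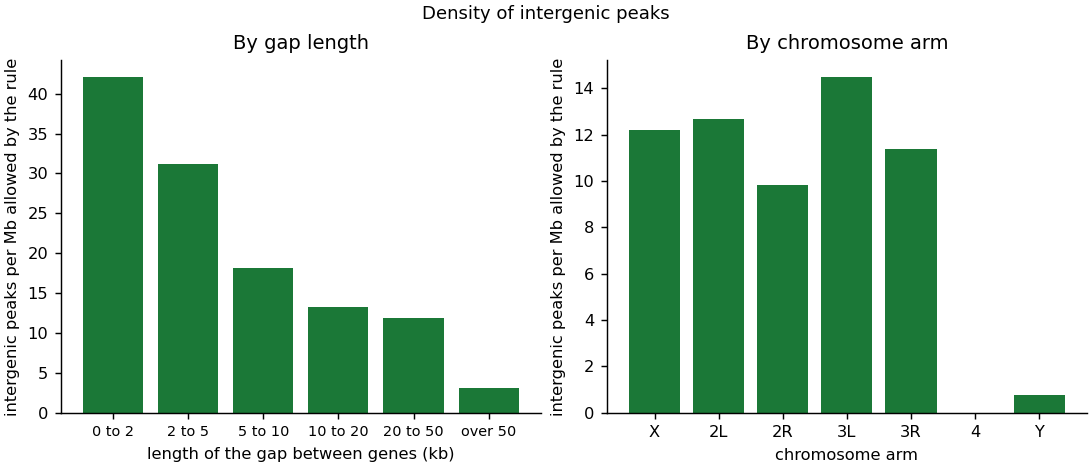
Intergenic peaks per Mb of DNA in which the rule allows a member, by length of the gap between protein-coding genes (left) and by chromosome arm (right). Density was 42.1 per Mb in gaps of up to 2 kb and 3.15 in gaps over 50 kb, and 14.5 on 3L, the densest arm.

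A summit stood a median of 3637 bp from the nearest protein-coding TSS, and 60.5% stood within 5000 bp. The members lay between tandem genes in 245 cases (50.1%), between divergent genes in 150 (30.7%), between convergent genes in 92 (18.8%) and outside the last gene of an arm in 2. No background share for these orientations was computed. The nearest gene boundary was a gene start for 260 (53.2%, 48.7 to 57.6%) and a gene end for 229. With a TSS limit of 1000 bp in the rule the share nearest to a start was 47.0%, so the order of the boundaries depended on the limit.

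The farthest member from a TSS, 3R:140210-140539, stood 426701 bp from the start of Myo81F, with 97.0% of its window masked as repetitive in the RefSeq sequence. Its signal was 65.0, with 22.8 in replicate 1 and 46.6 in replicate 2. The second, 3R:173682-174011, had 32.5 (18.1 and 14.6 in replicates 1 and 2) and a window masked over 100% of its length. A site on the Y between ARY and Ppr-Y had 69.5 (16.0 and 52.6). A site on the X between DIP1 and CG40813, inside an annotated transposable element, had 84.4 (43.4 and 39.0) and was in both replicates' lists. The fifth, on 2R between MFS17 and CG41378, had 49.5, with a candidate of 21.8 in replicate 2 and none in replicate 1. Windows masked over more than 50% were rare in the set as a whole, at 23 of 489, with a median signal of 81.5.

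Non-coding genes held 62 member summits (12.7%), of which 60 were in genes of the ncRNA biotype and 2 in small nuclear RNA genes. None was in a tRNA, rRNA, snoRNA or pseudogene (upper Wilson bound 0.779%). The share of the allowed DNA that lies in non-coding genes was not measured, so no excess or deficit is read from these counts. The 3 strongest in ncRNA genes were the Vinr and CR44619 sites above. The small nuclear RNA sites were at snRNA:7SKa, the RNA of the 7SK complex that holds back transcription elongation, with 81.8 (39.6 in replicate 1 and 37.9 in replicate 2), and at snRNA:U1:95Ca, a U1 splicing RNA, with 76.1 (50.1 and 28.4). Transposable elements held 8 members. One summit, named after its position was seen, lay in lncRNA:flam, the flamenco source of small RNAs against transposons, with 57.8 (22.3 and 34.9).

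Another intergenic summit lay within 5 kb of 174 members (35.6%, 31.5 to 39.9%), and gaps with at least 4 held 82. No expected value for such closeness was computed. The following gaps are named after their counts were seen. That between CG6168 and CG6163 held 7. NijA to CG43245, scyl to Dyro and CG44362 to CG7560 held 6 each. Between dnc, a cAMP phosphodiesterase, and the growth regulator Myc lay 5, with signals of 52.6 to 290. Gaps beside the POU-domain gene vvl and the actin gene Act5C held 4 each, with signals of 49.5 to 144 beside vvl and 66.7 to 207 beside Act5C.

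Chains of at least 6 members whose neighbours lie at most 20 kb apart numbered 6, and 5 of them were on 3L. The longest ran over 112 kb, with scyl, an inhibitor of growth signalling, at its start and CG11726 at its end. It had 17 members among the 21 peaks of any kind in that span, with a median signal of 86.3 and a highest signal of 434. The chain between hng3 and Sf3b3 had 10 members and no other peak over 59.5 kb. In the chinmo chain, too, all 10 peaks in the span were intergenic.

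**Figure D4:**
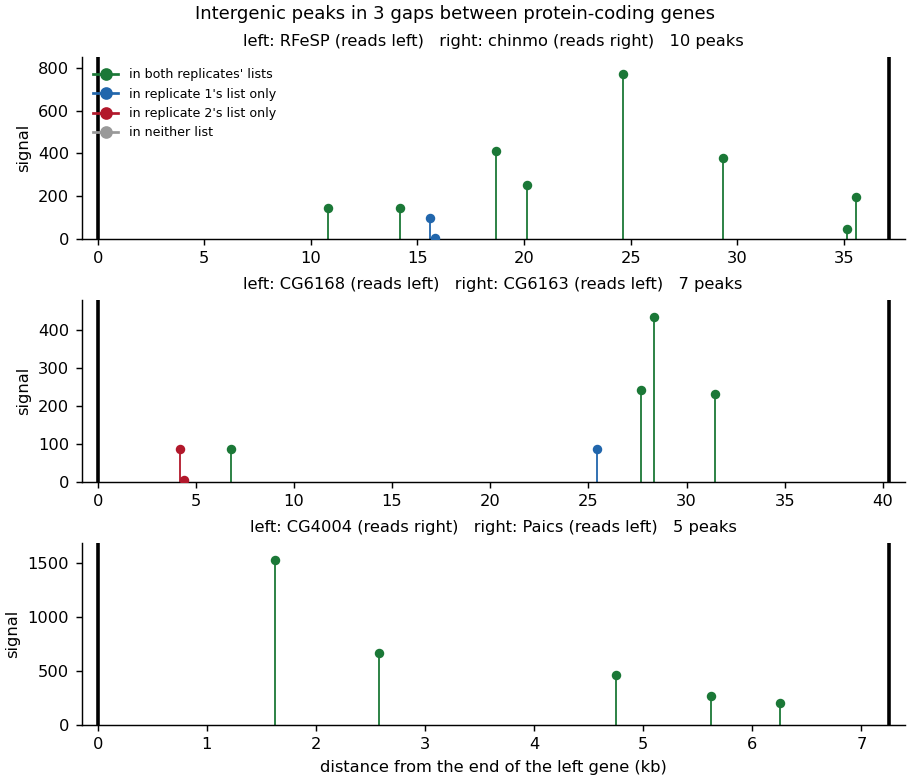
Intergenic peaks in 3 of the gaps with at least 5 members, among them the gap with the most members and the gap with the strongest. The distance from the end of the left gene in kb runs across, signal in the authors' units runs up, thick lines are the gene boundaries and colours give the replicate lists that hold each peak. The chinmo gap held 10 peaks up to 773, and all 5 peaks between CG4004 and Paics were in both lists.

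A protein-coding gene was counted as a neighbour where it was the nearest on either side of a member summit. A neighbour in this sense can lie far from the summit, and the gene on the other side can be nearer. This gave 651 of 13968 genes, or 4.66%. Of 28 annotated appendage patterning genes, 10 had a member beside them: C15, dac, bab1, bab2, danr, Ubx, tsh, btd, Doc1 and Doc2. The strongest beside btd, a zinc-finger gene of the head and legs, had 231 (132 and 92.3 in replicates 1 and 2). Its summit stood 6407 bp from btd and 713 bp upstream of nej, the nearer gene. The strongest between the T-box genes Doc2 and Doc1 had 229 (118 and 112) and was one of 3 in that gap. A member was present in 1.59% of gaps of up to 2 kb and in 23.5% of gaps over 50 kb, and the lists were not adjusted for gap length.

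The family of al, the paired-class homeobox genes, had a neighbouring member at 3 of 24. Rx, an eye and brain gene, had one of 111 (53.0 and 54.5 in replicates 1 and 2), and the Pax genes eyg and toe shared one of 74.2 (45.4 and 27.9). The shared site stood 5024 bp from eyg and 24845 bp from toe. Of 8 Hox genes, abd-A had one of 98.3 (44.1 and 50.7) and Ubx one of 3.18 (10.6 and 26.0). The Ubx site, near the lowest signal of the set (2.88), was in neither replicate's own list. It is also the site that places Ubx among the appendage patterning genes above. No gene of 17 for neural identity had a member beside it. Of 13 insulator and promoter factors, psq alone (7.69%) had a member, of 107, with 66.5 in replicate 1. That summit stood 13214 bp from psq and 1383 bp upstream of lola, the nearer gene. The share over all protein-coding genes was 4.66%, so the counts in these 2 short lists do not set them apart from other genes.

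Some signalling genes had a neighbouring member in each list examined, where the share over all protein-coding genes was 4.66%. These lists, too, were not adjusted for gap length. In EGFR signalling 3 of 13 genes had one. The repressor aop had a site of 231 (123 and 111 in replicates 1 and 2), 881 bp upstream of its start. The antagonist sty had one of 182 (117 and 62.0), and the activator pnt one of 87.5 (39.5 and 49.6). The sty site stood 18529 bp past the end of sty and 2541 bp past the end of Ids, the nearer gene. In Notch signalling 3 of 14 did: the ligand Ser (68.4), the target E(spl)m3-HLH (66.7) and the glycosyltransferase fng (51.3). Their sites stood 14935, 1406 and 10923 bp away, in that order. In Wnt signalling 3 of 15 did, with the receptor fz at 86.4 and the ligands wg and Wnt4 sharing a site of 67.6. The fz site stood 1783 bp from fz, and the shared site 25559 bp from wg and 4429 bp from Wnt4. In Dpp signalling 2 of 13 did, the ligand dpp (74.1, 8108 bp away) and the antagonist sog (46.1, 2140 bp away). Among these, the wg and Wnt4, fng and sog sites were in neither replicate's own list.

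DNA within 100 bp of the summit was compared with windows of the same length centred 1 kb to either side. The homeodomain core TAATTA, a palindrome, occurred in 77 of 489 intergenic windows, or 15.7% (12.8 to 19.2%), against 81 and 62 of the left and right flanking windows, or 14.6%. The interval holds the flanking share. In the replicates' own lists the share was 15.3% and 15.5% at intergenic summits, or 15.4 ± 0.159%, and 15.7 ± 0.216% in their flanks (SD, n = 2). At promoter peaks the core was in 18.9% of windows and 9.19% of flanks, and at within-gene peaks in 16.7% and 14.1%. An excess of cores at intergenic summits over their surroundings was not detectable with this number of peaks. By quartile of signal, from the strongest, the core was in 20.3%, 11.5%, 17.2% and 13.9% of intergenic windows. The 77 peaks with a core had a median signal of 91.5, and the 412 without had 79.9.

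Facing TAAT sites with a spacer of 2 bases (TAATNNATTA) were in 11 intergenic windows, or 2.25% (1.26 to 3.98%), and in 7 and 5 flanking windows. With a spacer of 3 bases (TAATNNNATTA) they were in 13, or 2.66% (1.56 to 4.49%), and in 10 and 4. In the replicates' lists the 2-base form was in 2.26 ± 0.0647% of intergenic windows and 1.27 ± 0.236% of flanks (SD, n = 2). The share of the 2-base form was 1.33% with the conservative list, so these few windows depend on the list used. At the other spacers from 0 to 8 bases the count ran from 6 to 14 windows, with 14 at a spacer of 1 and 12 at a spacer of 5. The counts of 11 and 13 at 2 and 3 bases lay within that range, and only the spacer of 1 exceeded 13.

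The DNA replication-related element TATCGATA, bound by the factor DREF at many housekeeping promoters, was in 3 intergenic windows, or 0.613% (0.209 to 1.79%), against 8.22% of promoter windows. GGTCACACT, a core promoter element called Motif 1, was in 4, or 0.818% (0.319 to 2.08%), against 2.45%. The TATA box letters TATAAA were in 32.1% at the summit and 25.9% in the flanks, against 37.8% of promoter windows. GAGAGAG, the letters bound by GAGA factor, was in 16 windows, or 3.27%, and 3.58% of flanks, against 3.63% of promoter windows. The repeat CACACACA was in 2.66%, and 5.93% of flanks. Runs that distal elements are known for were counted as well. CAGGTAG, bound by the early embryonic activator Zelda, was in 7 windows (1.43%) and in 1 and 3 flanks. Within-gene windows held CAGGTAG in 1.31% and their flanks in 1.16%, and promoter windows in 0.715% and their flanks in 1.28%. TGCATA, part of the Su(Hw) insulator site, was in 86, or 17.6% (14.5 to 21.2%), against 11.8% of flanks, and in the replicates' lists in 20.9 ± 0.201% against 13.4 ± 0.615% (SD, n = 2). All motifs were searched on both strands, and a match is a match of letters and not a bound site.

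Base composition changed towards the summit. Intergenic windows had a mean GC content of 37.3 ± 8.41% (SD, n = 489 windows), and their flanks 41.0%. Promoter windows had 35.7% and their flanks 45.0%. The strongest quartile of intergenic peaks had 34.5%, and the weakest 40.9%.

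**Figure D5:**
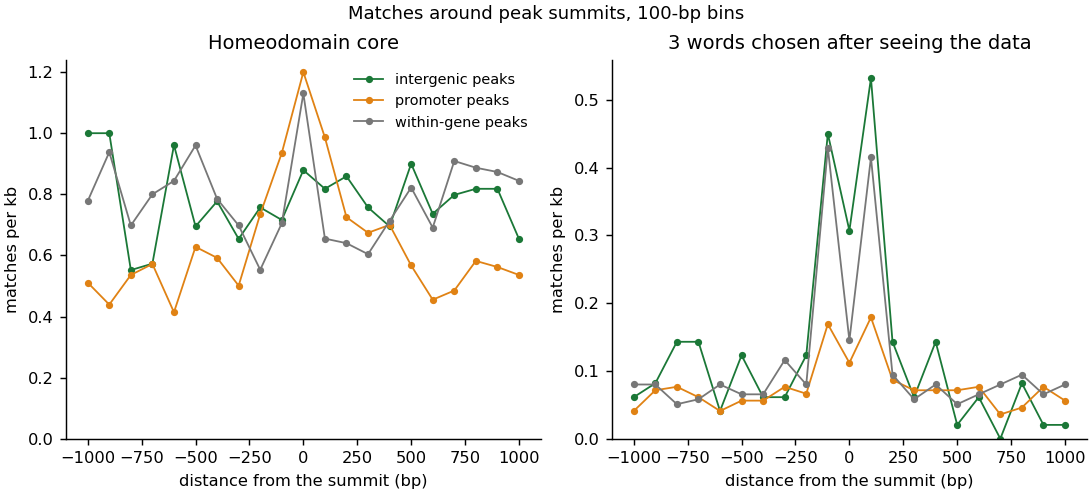
Matches per kb in 100-bp bins by distance from the summit, for the homeodomain core (left) and for 3 words chosen after the counts were seen (right), at intergenic, promoter and within-gene peaks. In the bin at the summit the core had 0.879 matches per kb at intergenic, 1.20 at promoter and 1.13 at within-gene peaks, and the density of the 3 words was highest within 150 bp of the summit in all 3 classes.

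All 8-letter words were then counted, and the following were chosen after their counts were seen, so their counts at intergenic summits carry no test. ACACTGAG headed the list, in 20 intergenic windows (4.09%, 2.66 to 6.23%) against 1 and 0 flanking windows. Of the words that overlap it, TACACTGA was in 21 against 3 and 1, and CACTGAGA in 25 against 4 and 1. At least 1 of the 3 was in 41 windows (8.38%, 6.24 to 11.2%), against 0.920% of flanks. The replicates' lists gave 7.72 ± 0.487% of intergenic windows against 0.781 ± 0.322% of flanks (SD, n = 2). Within-gene peaks held one in 6.04% of windows (4.90 to 7.42%) and 1.35% of flanks. Promoter peaks did in 3.06% (2.39 to 3.92%) and 1.05%. The words are thus shared with peaks inside genes. The counts of these 2 classes did not enter the ranking of words but were listed beside it, so they carry no test either.

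The 3 words did not crowd onto the summit itself. Sites, with overlapping matches counted once, had a density of 0.307 per kb up to 50 bp from an intergenic summit, 0.675 per kb from 50 to 100 bp, and 0.307 per kb from 100 to 150 bp. From 200 to 1000 bp it was 0.0780 per kb. Within-gene peaks had 0.145, 0.531, 0.313 and 0.0727 per kb over the same distances. The band from 100 to 150 bp lies outside the windows used to choose the words. Of the 63 sites within 150 bp of an intergenic summit, 27 (42.9%) lay in sequence masked in RefSeq, against a mean of 21.2% of bases over the intergenic windows, and the part of repeats in these counts was not tested. The 41 members had a median signal of 86.5, and the 448 others had 79.6. Strong examples outside the right arm of the second chromosome follow, with the words in capitals.
NijA and CG43245, 3L:10738703-10738803: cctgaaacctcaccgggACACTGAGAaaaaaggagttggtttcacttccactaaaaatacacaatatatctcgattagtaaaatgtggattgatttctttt
Cad89D and Gr89a, 3R:16497521-16497621: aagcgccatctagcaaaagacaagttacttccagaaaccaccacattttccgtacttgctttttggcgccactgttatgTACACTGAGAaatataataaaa
mah and tnc, 3R:24962587-24962687: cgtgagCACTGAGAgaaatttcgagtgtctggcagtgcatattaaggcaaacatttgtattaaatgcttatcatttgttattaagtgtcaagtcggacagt
The site between mah and tnc, a gene of the extracellular matrix, had 133 (79.0 in replicate 1 and 58.5 in replicate 2). The site between Cad89D, a cadherin, and Gr89a, a taste receptor gene, had 138 (92.3 and 47.7) and held the words TACACTGA, ACACTGAG and CACTGAGA in 1 run of 10 letters.

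AGATGGCGC, a word within the known consensus of the insulator protein CTCF in flies, was also chosen after it was seen among the words. It was in 9 intergenic windows (1.84%, 0.971 to 3.46%) and in 0 of the flanking windows on either side. Within-gene peaks held it in 12 windows (0.873%) against 2 and 1 flanking windows. Promoter peaks held it in 9 (0.460%) against 5 and 1. The upper bound of the within-gene interval, 1.52%, lay above the lower intergenic bound. With 9 and 12 windows and no test, whether the share of the word differs between these 2 classes was not decided. A related form from the motif list, AGGNGGCGC, was in 10 intergenic windows (2.04%, 1.11 to 3.72%) and 1.12% of flanks, against 0.562% of promoter windows and 0.945% of within-gene windows (0.582% of their flanks). The 9 intergenic sites with AGATGGCGC had signals of 60.6 to 138, so none was in the weakest quartile. They included the sites between the SOX genes Sox21a and Sox21b (100) and between Fancm and C15 (74.9). The 2 strongest are shown with the word in capitals.
Cad89D and Gr89a, 3R:16497521-16497621: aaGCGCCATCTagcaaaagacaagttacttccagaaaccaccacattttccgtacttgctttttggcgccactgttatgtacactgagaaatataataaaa
soti and cv-c, 3R:14391380-14391480: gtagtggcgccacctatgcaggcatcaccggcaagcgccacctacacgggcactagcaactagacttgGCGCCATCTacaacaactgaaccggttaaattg
The same site between Cad89D and Gr89a thus holds both kinds of word, 1 on each side of its summit.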

How the data were processed

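Chromatin immunoprecipitation with an antibody against GFP was sequenced from 2 biological replicates of whole al-eGFP embryos, per the labels. The authors deposited narrow-peak lists on assembly dm6: thresholded lists for the series and for each replicate, made by the irreproducible discovery rate (IDR), longer ranked lists, and a conservative series list. The aligner, the peak caller and the scaling were not given in the sources used here. No reads or depths were used, so depth is unknown. Each deposited peak has a signal value, a −log10 q-value (a −log10 global IDR in the ranked lists) and an IDR score of at most 1000, all by the authors. Per the labels the replicates are biological, with nothing more on how they were kept apart, so their spread may be partly technical.

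The series list had 3848 peaks, of which 26 off the 7 arms were left out. Peaks were placed by summit in Ensembl release 115 genes. Sequences came from RefSeq's release 6 genome, and 13955 of 13968 protein-coding genes had the same start and end in the Ensembl and RefSeq annotations. Overlap meant at least 1 bp, and intervals are 95% Wilson intervals that treat peaks as independent. With 1 group of 2 replicates there was no test over samples, and none over peaks was made. Replicate signals came from the nearest overlapping candidate in each replicate's ranked list. In all, 16 motifs and 9 gene lists were used, with 7 listed symbols not found under that name and left out. Classification and motif search were checked on simulated input with known answers. Intervals used scipy 1.17.1, figures matplotlib 3.10.9, and tables pandas 2.3.3 with numpy 2.4.6, all under Python 3.11.15.

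Genes were named by rule: the neighbours of the 20 strongest members, the 5 members farthest from a TSS, the 3 on either side of the 500 bp limit, the 3 strongest in each non-coding biotype, and the 4 strongest of each gene list. Others are marked in the text as chosen after their values were seen. The members and lists were chosen with earlier results of these data known. Alternatives changed the peak list, the replicate, the TSS limit, the summit, the gene types, the IDR threshold, the window, the overlap and the treatment of close summits. Some members and sequences that these rules name are not reported here.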

Additional observations from a re-analysis of the deposited data

How the results depend on the processing

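Of 18 results, 61 of 123 recomputed values stayed within 1 replicate SD (for overlaps, the 95% interval, and for counts, 1.5 times). The 489 intergenic peaks became 282 at a global IDR of at most 0.001 and 347 in the list of replicate 1 alone and 271 in that of replicate 2 alone, and the 651 neighbouring genes became 478 and 384 in these 2 lists. Overlap with replicate 1 was 78.6% of the intergenic peaks of replicate 2, and overlap with replicate 2 was 62.0% of those of replicate 1. With a TSS limit of 1000 bp, 14.4% lay in a non-coding gene, 47.0% were nearest to a gene start, 16.3% held TAATTA and 2.48% held the 2-base dimer. With genes of every biotype the last 3 were 51.2%, 16.4% and 2.35%. With the conservative list they were 54.4%, 16.2% and 1.33%, and the DRE share was 0.221%. In windows of 50 bp to each side, TAATTA, the 2-base dimer and the DRE were in 7.77%, 1.02% and 0.204%, and in windows of 250 bp in 32.1%, 5.11% and 1.64%. Keeping only the strongest of summits within 250 bp left 472 peaks, with the 2-base dimer in 2.33%. Lists of single replicates gave 13.5 to 14.4% in a non-coding gene, 54.5 to 55.7% nearest to a start, 15.3 to 15.5% with TAATTA, 2.21 to 2.31% with the 2-base dimer and 0.576 to 1.11% with the DRE. Of the other results, 20 of 43 recomputed values moved by more than 1 SD. A replicate SD from 2 lists is itself imprecise, and 3 values fixed by construction were not computed. No paired analysis was possible because there was only 1 group.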

Other observations

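The ranked list of the series held 34194 intergenic candidates that overlap no peak of the thresholded list used here, and 16 of them had a signal above the members' median of 79.9. The strongest, at 2L:12011167-12011361 between Rh5, a rhodopsin gene, and Wdr81, had a signal of 344, with 195 in replicate 1 and 150 in replicate 2. The next, at 3R:16224385-16224614, stood 1155 bp upstream of tara, in the gap of the member of 596, and had 334 (180 and 154). A pair on the X beyond ATbp, the last protein-coding gene of that arm, had 227 and 185, with candidates of 199 and 204 in replicate 2 and none in replicate 1. Why these candidates are not in the thresholded list was not tested.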
